A study of Mus musculus with 18 samples.

Results

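Hr, Klf9, Thrsp and Me1 are textbook direct targets of thyroid hormone, and their transcript levels were followed through loss and return of the hormone in mouse heart. The 4 genes were taken by symbol from the 24341 genes of a table of heart transcript levels, and all 4 were found in it. Their choice was made with earlier results of these data known. All hearts came from C57BL/6 mice aged 12 weeks, of a wild-type genotype (WT) or a cardiac-specific Med13 knockout (labelled cKO). In each genotype, 3 hearts came from mice on normal chow, 3 from mice fed propylthiouracil (PTU), which blocks the making of thyroid hormone, and 3 from mice fed PTU and then injected with triiodothyronine (T3), the active hormone. The PTU diet began at 8 weeks of age and ran for 4 weeks, and T3 was given in 3 daily injections. No source used here names the Cre driver of the knockout. Each of the 18 libraries has its own number in its title and is called a heart here, but the labels do not state that the numbers are animals. A p-value therefore weighs a difference against the scatter of these libraries, which may be technical.

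Thyroid hormone acts through nuclear receptors that sit on DNA at response elements, usually paired with a retinoid X receptor. Without hormone the receptors hold corepressors and keep target genes low, and with T3 they exchange them for coactivators, among them the Mediator complex. Med13 is counted among the subunits of Mediator, and its part in this exchange was not measured here. The 4 genes fall into 2 roles. Hr and Klf9 encode nuclear regulators and were described as hormone targets mainly in brain, whereas Thrsp and Me1 encode proteins of fatty acid synthesis and were described as targets mainly in liver and fat.

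Levels are given in FPKM, fragments per kilobase of transcript, a unit corrected for gene length and library size. The median over tested genes lay between 8.72 and 8.94 FPKM in all libraries. Whether the deposited values had also been scaled between libraries was not tested. Each library had between 11677 and 12091 genes at 1 FPKM or more, and the relative depth of the libraries ran from 0.785 to 1.19 times that of the first WT chow library. The targeted gene Med13 averaged 5.52 ± 0.283 FPKM on chow, 6.36 ± 0.716 FPKM on PTU and 5.73 ± 0.509 FPKM after T3 in hearts labelled WT, whereas hearts with the cKO label averaged 5.90 ± 0.702, 5.34 ± 0.618 and 6.25 ± 0.723 FPKM in the same order (SD, n = 3). These gene-level values do not separate the genotypes, so every statement on genotype rests on the labels, and cKO means the hearts labelled so throughout. Exons of Med13 also overlap those of the antisense gene Brip1os, which reached up to 4.56 FPKM in a library. The library kit does not mark strand, and the part of such reads in the Med13 values was not tested. The cardiomyocyte markers, 10 of 10 detected, summed to between 39276 and 73339 FPKM per library. Lymphocyte markers were near absent, with 4 of 8 reaching 1 FPKM in any library.

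In the GRCm38 (mm10) assembly, Hr lies on the plus strand at chr14:70552212-70573548 with up to 20 exons, and Klf9 on the plus strand at chr19:23141226-23168134 with 2 exons. Thrsp lies on the minus strand at chr7:97412938-97417730 with 2 exons, and Me1 on the minus strand at chr9:86581371-86695953 with up to 14 exons. The 5′ end of Me1 overlaps exonic sequence of an antisense gene, A330041J22Rik, which reached at most 0.800 FPKM in any library. The library kit does not mark strand, so reads in the overlap cannot be told apart. Because the 4 genes respond to 1 hormone, the sequences just upstream of their starts are shown for the 3 that RefSeq's table for GRCm38.p6 holds. Each was searched on both strands, over the 250 bases before the RefSeq start, for the receptor half-site AGGTCA, the looser form AGGNCA, and a direct repeat of that looser form with 4 bases between. The search also took in the CCAAT box, the TATA box (TATAAA), the GC box (GGGCGG) and the E-box (CACGTG). Printed 5′ to 3′ is the part upstream of every annotated transcript start, and capitals mark matches that lie wholly within it. The regions are chr19:23140976-23141225 on the plus strand for Klf9, chr9:86695954-86696164 on the minus strand for Me1, and chr7:97417731-97417800 on the minus strand for Thrsp.
Klf9: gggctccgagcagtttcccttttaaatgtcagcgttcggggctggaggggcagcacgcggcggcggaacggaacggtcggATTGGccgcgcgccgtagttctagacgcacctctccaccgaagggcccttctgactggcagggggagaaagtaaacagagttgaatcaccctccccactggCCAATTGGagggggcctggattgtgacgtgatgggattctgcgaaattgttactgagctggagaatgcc
Me1: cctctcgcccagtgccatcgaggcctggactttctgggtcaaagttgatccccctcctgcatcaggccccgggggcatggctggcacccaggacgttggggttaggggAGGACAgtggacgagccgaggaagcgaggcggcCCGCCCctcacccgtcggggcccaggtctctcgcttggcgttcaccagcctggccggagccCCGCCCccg
Thrsp: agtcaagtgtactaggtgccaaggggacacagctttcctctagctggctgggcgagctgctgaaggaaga

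Klf9 held CCAAT 69 bases before its start on the sense strand, and on the antisense strand at 170 and, overlapping the first, at 66 bases. Me1 held the GC box at 109, 48 and 42 bases on the antisense strand, the last of them outside the printed part, and the looser half-site AGGNCA at 142 bases. In Thrsp, all matches lay nearer the RefSeq start than the printed part, with CCAAT at 52 bases, its reverse at 79 and the reverse of the looser half-site at 178 bases. That looser half-site occurs in 51.3% of the 32851 upstream regions in the RefSeq table, the CCAAT box in 33.8% and the GC box in 32.7%. None of the 3 regions held AGGTCA (14% of all regions), the direct repeat (0.213%), the E-box (6.02%) or the TATA box (12.4%). GC content was 72% for Me1 with 23 CpG dinucleotides, 59.6% for Klf9 with 18, and 53.6% for Thrsp with 2, against medians of 52.4% and 6 over all regions. Me1 has a second RefSeq start inside the annotated gene, with its upstream region, not printed, at chr9:86687278-86687527. That region had 46% GC and 2 CpG dinucleotides. It held no GC box, the looser half-site at 102 bases and the reverse of CCAAT at 208 bases. These are matches of letters in short windows, and receptor binding was not measured.

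Hr, which encodes the nuclear corepressor hairless, a partner of the thyroid hormone receptor, had the widest range of the 4 genes as a ratio between levels. In WT hearts it stood at 8.03, 7.02 and 6.14 FPKM on chow, at 1.15, 1.43 and 0.368 FPKM on PTU, and at 59.3, 48.7 and 51.4 FPKM after T3. In cKO hearts it stood at 5.44, 5.36 and 7.04 FPKM on chow, at 1.03, 1.41 and 1.62 FPKM on PTU, and at 59.3, 58.2 and 55.9 FPKM after T3. The 3 treatments formed separate bands in both genotypes, lowest on PTU and highest after T3, and within each band the genotypes overlapped. PTU left 13.9% of the mean chow level in WT hearts (single hearts from 5.21% to 20.3%) and 22.8% in cKO hearts (from 17.3% to 27.3%). After T3 the level was 752% of chow in WT and 972% in cKO hearts. From PTU to T3 the mean level differed by 54.1-fold in WT and 42.7-fold in cKO hearts.

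The changes of Hr were tested with limma on log2(FPKM + 1), over the 12587 genes that reached 1 FPKM in at least 3 libraries. Adjustment was by Benjamini-Hochberg over those genes in each comparison, with a threshold of 0.05 for a call. On PTU, Hr fell by 2.06 on this log2 scale in WT (SE 0.171, adjusted p = 2.15e-06) and by 1.56 in cKO hearts (adjusted p = 2.50e-05). With T3 it rose from its PTU level by 4.81 in WT (adjusted p = 6.22e-11) and by 4.65 in cKO hearts (adjusted p = 1.05e-10). It ended above chow, by 2.75 in WT (adjusted p = 3.43e-07) and by 3.09 in cKO hearts (adjusted p = 5.84e-08). The added 1 FPKM shrinks the change of a gene as low as Hr on PTU, which is why these values lie under the ratios of the FPKM means. These are whole-heart values, in which fewer cells of a type and less RNA per cell cannot be told apart.

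Klf9, a Krüppel-like transcription factor, was expressed at a higher level than Hr on chow and moved over a narrower range. In WT hearts it stood at 35.8, 33.4 and 25.1 FPKM on chow, at 15.7, 15 and 21.5 FPKM on PTU, and at 45.2, 34.8 and 44.0 FPKM after T3. In cKO hearts it stood at 34.2, 39.2 and 30.4 FPKM on chow, at 17.4, 12.9 and 19.4 FPKM on PTU, and at 40.9, 44.3 and 39.4 FPKM after T3. Every PTU heart lay below every chow heart of its genotype, whereas chow and T3 hearts overlapped in WT and lay just apart in cKO. PTU left 55.3% of the chow mean in WT and 47.9% in cKO hearts, and T3 brought the mean to 131% and 120% of chow.

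By limma, Klf9 fell by 0.82 on the log2 scale on PTU in WT hearts (SE 0.167, adjusted p = 0.00369) and by 1.03 in cKO hearts (adjusted p = 0.000875). With T3 it rose by 1.21 in WT (adjusted p = 3.34e-05) and by 1.29 in cKO hearts (adjusted p = 1.41e-05). Against chow the T3 level was not called in either genotype, with a log2 difference of 0.39 in WT (95% confidence interval 0.04 to 0.74, adjusted p = 0.131) and 0.26 in cKO hearts (adjusted p = 0.291). Averaged over both genotypes, a contrast chosen after seeing the data, the difference was 0.33 (SE 0.118, adjusted p = 0.0421). Whether Klf9 returned to its chow level or passed it thus depended on whether the genotypes were pooled.

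**Figure D1:**
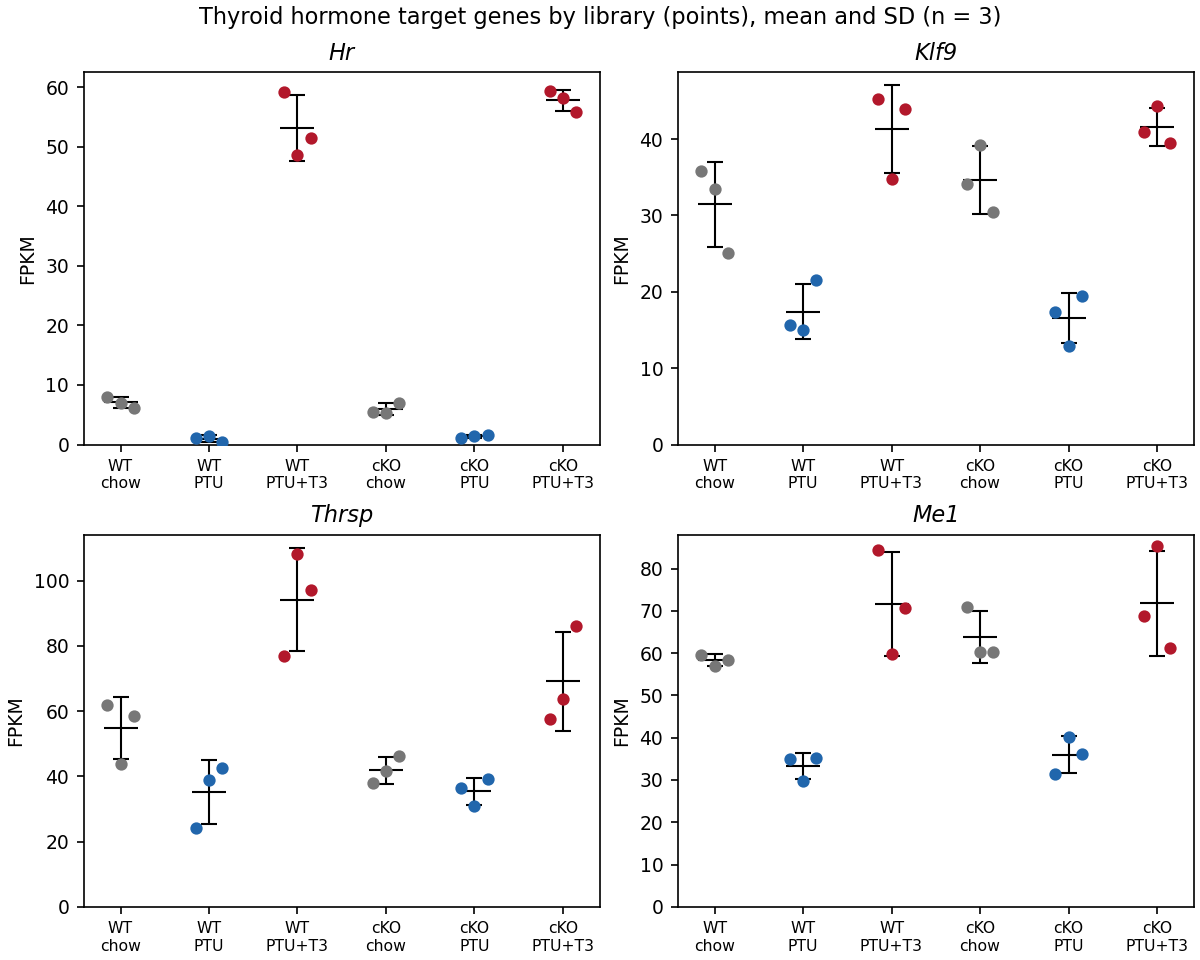
Transcript level in FPKM (y axes, each from 0) of Hr, Klf9, Thrsp and Me1 in 18 hearts, by genotype and treatment (x axes); points are libraries, horizontal lines group means and bars the SD of 3 libraries. Hr sits between 0.368 and 1.62 FPKM on PTU and between 48.7 and 59.3 FPKM after T3, whereas the chow and T3 hearts of Klf9 and Me1 lie close together.

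Thrsp, also called Spot 14, encodes a regulator of fatty acid synthesis and is made chiefly in fat, liver and mammary gland. In WT hearts it stood at 61.8, 43.8 and 58.7 FPKM on chow, at 24.1, 38.8 and 42.7 FPKM on PTU, and at 77.0, 108 and 97.3 FPKM after T3. In cKO hearts it stood at 37.9, 41.7 and 46.2 FPKM on chow, at 36.3, 31.0 and 39.1 FPKM on PTU, and at 57.5, 63.8 and 86.3 FPKM after T3. By the means its fall was the shallowest of the 4 genes, and in cKO hearts chow and PTU overlapped. T3 hearts lay above all chow and PTU hearts of their genotype. PTU left 64.3% of the chow mean in WT and 84.6% in cKO hearts, and after T3 the mean was 172% and 165% of chow.

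For Thrsp, limma called a fall of 0.65 on the log2 scale on PTU in WT hearts (SE 0.203, adjusted p = 0.0387). It did not call the cKO difference of -0.24 (95% confidence interval -0.67 to 0.19, adjusted p = 0.464). The call in WT hearts ended when replicate 1 or replicate 3 of the chow group, or replicate 1 of the PTU group, was left out, at -0.56, -0.59 and -0.40 (adjusted p = 0.136, 0.113 and 0.179). Averaged over genotypes the difference was -0.44 (adjusted p = 0.0278). With T3, Thrsp rose from its PTU level by 1.42 in WT (adjusted p = 4.89e-05) and by 0.93 in cKO hearts (adjusted p = 0.00152), and both calls held under all 31 alternatives run. It ended above chow by 0.77 in WT (adjusted p = 0.0194) and by 0.69 in cKO hearts (adjusted p = 0.0238), and these calls ended under 6 and 7 of those alternatives. The libraries whose removal ended them were replicate 2 of WT chow and replicates 2 and 3 of WT after T3, with a log2 difference down to 0.62, and replicates 1 and 2 of cKO chow and 2 and 3 of cKO after T3, with one down to 0.52.

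Fat markers were measured beside Thrsp, since adipocytes make it. The 6 fat-restricted markers Adipoq, Plin1, Cfd, Lep, Cidec and Retn, all 6 of which reached 1 FPKM in some library, summed to 2.32 to 18.5 FPKM in WT hearts on chow, 3.62 to 18.4 FPKM on PTU and 1.66 to 112.9 FPKM after T3. In cKO hearts the sums were 2.47 to 6.4 FPKM on chow, 0.830 to 36.7 FPKM on PTU and 2.25 to 26.2 FPKM after T3. WT after T3 replicate 2 held the highest sum and also the highest Thrsp level, whereas WT PTU replicate 1 held the highest sum of its group and the lowest Thrsp level of all hearts. Without the library highest in these markers of each group, chosen after seeing the data, the rise of Thrsp with T3 was 1.07 in WT (adjusted p = 0.0029) and 1.12 in cKO hearts (adjusted p = 0.00186). The fall on PTU in WT hearts was then 0.35 in size and not called (adjusted p = 0.335). The level above chow was 0.72 in WT (adjusted p = 0.0722) and 0.74 in cKO hearts (adjusted p = 0.0387). A list of 11 adipocyte markers, which includes Fabp4, was highest in other libraries, replicate 2 of WT chow and replicate 3 of WT PTU. Fabp4 alone made up 1138 of 1323 FPKM in that chow heart and 1159 of 1308 FPKM in that PTU heart. Their fat-restricted sums were only 3.10 and 3.62 FPKM, so the longer list mainly ranked these hearts by Fabp4. Without the library of each group highest in that list, the fall in WT hearts was 0.95 in size and called (adjusted p = 0.0323). The level above chow was then called in neither genotype, at 0.59 in WT and 0.46 in cKO hearts. Whether the call of the fall ended thus depended on the marker list used.

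**Figure D2:**
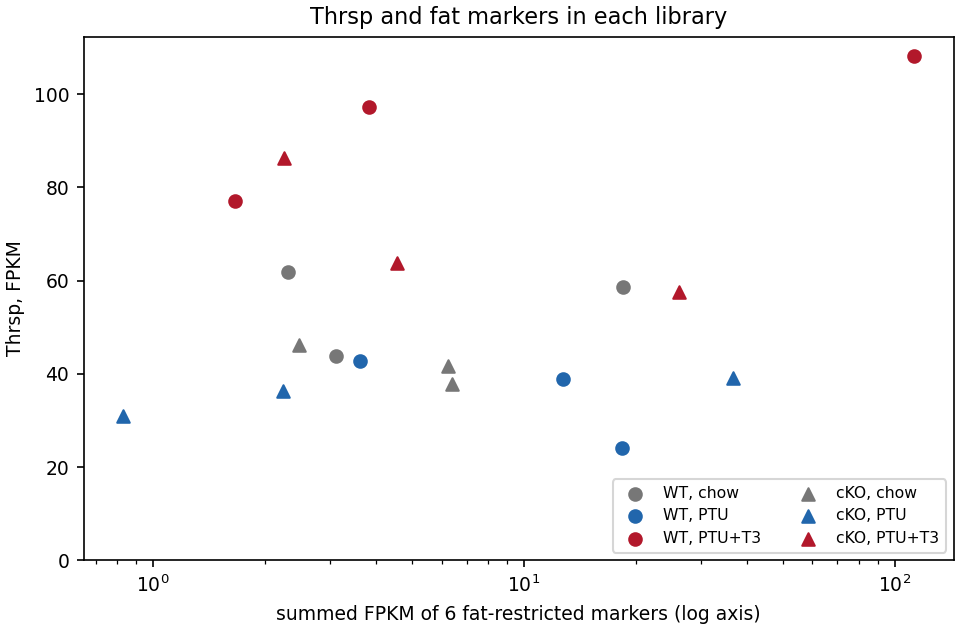
Thrsp level (y axis, FPKM, from 0) against the summed FPKM of 6 fat-restricted markers (x axis, log scale) in each of 18 libraries, with colour for treatment and shape for genotype. Within each genotype the T3 hearts lie above the chow and PTU hearts in Thrsp, at marker sums from 1.66 to 112.9 FPKM, while the lowest cKO T3 heart, at 57.5 FPKM, lies below 2 WT chow hearts, at 58.7 and 61.8 FPKM.

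Me1, the cytosolic malic enzyme that supplies NADPH for fatty acid synthesis, had mean falls and rises near those of Klf9. In WT hearts it stood at 59.7, 57.0 and 58.4 FPKM on chow, at 35.0, 29.7 and 35.2 FPKM on PTU, and at 84.3, 59.9 and 70.8 FPKM after T3. In cKO hearts it stood at 70.9, 60.3 and 60.3 FPKM on chow, at 31.5, 40.3 and 36.2 FPKM on PTU, and at 68.9, 85.3 and 61.2 FPKM after T3. PTU hearts lay apart below all others. The WT T3 hearts began just above the highest WT chow heart, and the T3 and chow hearts of the cKO genotype overlapped. PTU left 57.1% of the chow mean in WT and 56.4% in cKO hearts, and after T3 the mean was 123% and 112% of chow.

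By limma, Me1 fell by 0.80 on the log2 scale on PTU in WT hearts (SE 0.135, adjusted p = 0.000963) and by 0.81 in cKO hearts (adjusted p = 0.000991). With T3 it rose by 1.07 in WT (adjusted p = 1.28e-05) and by 0.97 in cKO hearts (adjusted p = 2.73e-05). The T3 level was not called against chow, with differences of 0.28 in WT (95% confidence interval -0.01 to 0.56, adjusted p = 0.181) and 0.16 in cKO hearts (adjusted p = 0.449). Averaged over genotypes the difference was 0.22 (adjusted p = 0.0872). Like Hr, Me1 kept its treatment calls under all alternatives run.

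**Figure D3:**
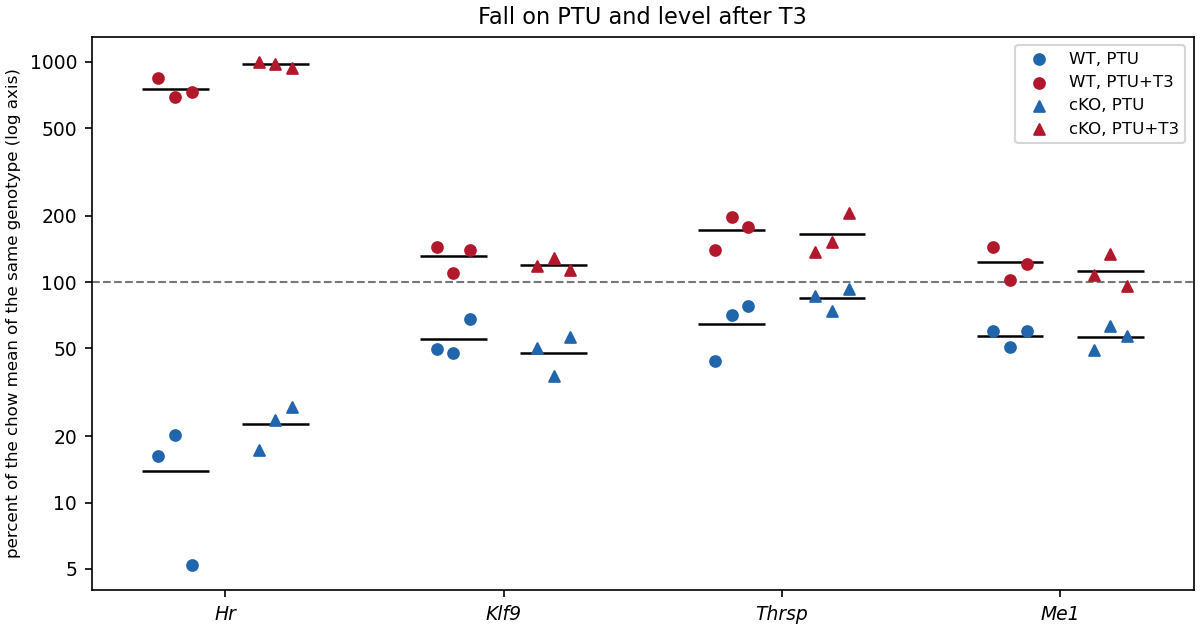
Level of each gene on PTU and after T3 as a percent of the chow mean of the same genotype (y axis, log scale; dashed line at 100) for Hr, Klf9, Thrsp and Me1 (x axis); points are single hearts and short lines group means. Hr falls to 13.9% and 22.8% and ends at 752% and 972% of chow in WT and cKO hearts, whereas the T3 means of the other genes lie between 112% and 172%.

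Counted together, 4 of the 4 genes were called lower on PTU in WT hearts, where 16.8% of all tested genes were called, 8.76% lower and 8.02% higher. In cKO hearts 3 of 4 were called lower, with 16% of all genes called, 9.59% lower and 6.44% higher. With T3 against PTU, 4 of 4 rose in WT, where 44.1% of genes were called, 22.3% higher and 21.8% lower, and 4 of 4 in cKO hearts, where 46.7% were called, 24.9% higher and 21.8% lower. Against chow, 2 of 4, Hr and Thrsp, were called above it in WT, with 14.7% of genes called, 7.68% higher and 7% lower, and the same 2 in cKO hearts, with 20.9% called, 11.7% higher and 9.15% lower. Averaged over genotypes, 4 of 4 fell on PTU (16.6% of all genes lower, 14.7% higher), 4 of 4 rose with T3 (30.3% higher, 29.3% lower) and 3 of 4 lay above chow (18.6% higher, 16.2% lower). The median log2 difference of the 4 genes was -0.81 and -0.92 on PTU, 1.32 and 1.13 with T3 against PTU, and 0.58 and 0.48 against chow, in WT and cKO hearts, while that of all tested genes was 0.00 in each. The comparisons with PTU share the PTU libraries, and those with chow share the chow libraries.

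Among all 12587 genes, Hr ranked 2 in WT and 3 in cKO hearts by its rise with T3, and likewise 2 and 3 by its level above chow. Its fall on PTU was less extreme in rank, at 18 and 46 from the lowest. The rise of the other genes ranked 364 and 316 for Klf9, 225 and 722 for Thrsp, and 488 and 657 for Me1.

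Whether the genes differed from each other was tested on the log2 ratio of their FPKM values within each heart, by an exact two-sided permutation test with treatment labels permuted within genotype over 400 arrangements, for 18 combinations of gene pair and comparison. Hr fell further than Klf9 on PTU by 1.64, further than Me1 by 1.78 and further than Thrsp by 2.15 on the log2 scale. With T3 it rose further from PTU than these 3 genes by 4.40, 4.66 and 4.51, and further past chow by 2.77, 2.88 and 2.36. Each of these 9 differences had an exact permutation p = 0.005, the smallest the test can give, and 0.01 after Benjamini-Hochberg adjustment over the 18 tests, and the log2 ratios of the 2 treatments did not overlap over 12 hearts. Klf9, Thrsp and Me1 were not told apart after adjustment. The nearest were the shallower fall of Thrsp than of Klf9, by 0.51 (exact permutation p = 0.045, adjusted 0.081), and its higher level past chow than that of Me1, by 0.52 (p = 0.05, adjusted 0.0818, exact permutation). The rise of these 3 genes from PTU to T3 differed by 0.10 to 0.26 in size (exact permutation p from 0.095 to 0.63). A p of this size does not show that they responded alike.

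The balance of fall and overshoot was unlike between the genes. Distances here are differences between group means of log2 FPKM, without the added 1 FPKM. The distance above chow after T3 was 0.954 times the fall below chow on PTU for Hr in WT and 1.53 times in cKO hearts. For Thrsp it was 1.18 and 2.90 times, the latter over a fall that was not called. It was 0.467 and 0.252 times for Klf9 and 0.348 and 0.193 times for Me1, so both ended nearer to chow than they had fallen from it. These ratios are descriptions and carry no test.

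**Figure D4:**
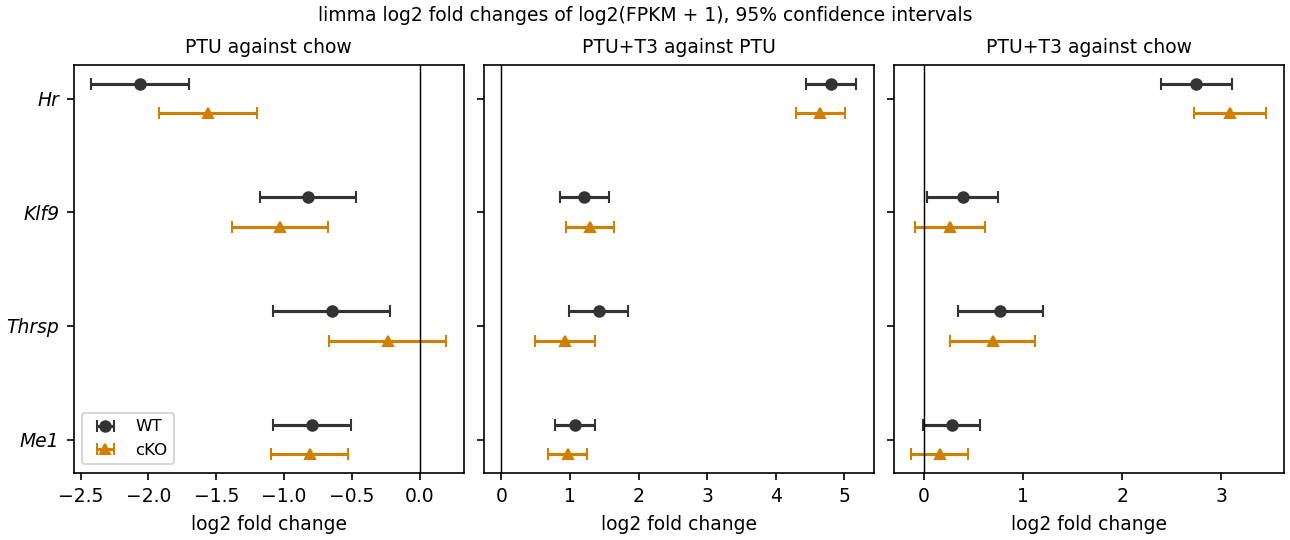
limma log2 fold changes of log2(FPKM + 1) (x axes) for Hr, Klf9, Thrsp and Me1 (y axis) in 3 comparisons, in WT (circles) and cKO hearts (triangles), with 95% confidence intervals. Hr reaches 4.81 and 4.65 from PTU to T3, and the interval of Thrsp on PTU in cKO hearts, -0.67 to 0.19, includes 0.

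The design also asks whether the cKO label changes these responses. With limma, 0 of the 4 genes were called between genotypes on chow, on PTU, after T3 or averaged over treatments, nor in the 3 interactions of genotype with treatment, and 0% of the 12587 tested genes were called in each of these. At an unadjusted p under 0.05, Thrsp passed after T3, with a cKO minus WT difference of -0.45 (95% confidence interval -0.88 to -0.02, adjusted p = 0.979), and averaged over treatments, at -0.26 (95% confidence interval -0.50 to -0.01, adjusted p = 1). At that level 434 and 209 of all genes passed in the same comparisons, which is 3.45% and 1.66%. In the other comparisons 0 of the 4 passed, while 394 of all genes passed on chow, 491 on PTU, and 805, 821 and 294 in the interactions of genotype with PTU, with T3 after PTU, and with T3 against chow. On chow Thrsp was 41.9 ± 4.16 FPKM in cKO and 54.8 ± 9.57 FPKM in WT hearts, and after T3 69.2 ± 15.1 and 94.1 ± 15.8 FPKM (SD, n = 3), with overlap in both. The authors' deposited table gave q-values of 0.330 and 0.132 for these comparisons of Thrsp.

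For Hr the fall on PTU was 0.50 shallower in cKO hearts on the log2 scale (95% confidence interval -0.01 to 1.01, adjusted p = 0.764). This value was 0.25 without WT PTU replicate 3, the heart at 0.368 FPKM. Its T3 interaction was -0.16 (95% confidence interval -0.67 to 0.35). The intervals for the interaction of T3 with genotype ran from -0.42 to 0.58 for Klf9, from -0.51 to 0.30 for Me1 and from -1.10 to 0.12 for Thrsp. Differences between genotypes within these intervals were not detectable here.

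In the authors' deposited table, all 4 genes were marked significant for PTU against chow in WT hearts (q = 0.000771 each) and for T3 against PTU (q = 0.00034 each). Against chow after T3, the authors' deposited table marked Hr and Thrsp (q = 0.00109) but not Klf9 (q = 0.0557) or Me1 (q = 0.201). These are the same calls as by limma in each of the 3 WT comparisons.

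By group mean, Hr was ordered by treatment alone, from WT PTU and cKO PTU through cKO chow and WT chow to WT and cKO after T3, with no overlap at the steps between treatments. For Klf9 the groups formed 2 sets, PTU below and chow with T3 above, with overlap between neighbours in the upper set. Thrsp was ordered from WT PTU and cKO PTU through cKO chow, WT chow and cKO after T3 to WT after T3, and each pair of neighbours in that order overlapped. Me1 had PTU below and the rest above. Its WT chow hearts, at 58.4 ± 1.37 FPKM, lay just below its cKO chow hearts, at 63.8 ± 6.12 FPKM (SD, n = 3), without overlap but with a limma difference of only 0.12 (adjusted p = 0.999). Across the 18 libraries the Pearson correlations of log2(FPKM + 1) between the 4 genes lay between 0.658 for Thrsp with Me1 and 0.917 for Klf9 with Me1. Once group means were removed they lay between -0.507, again for Thrsp with Me1, and 0.234. The points share their libraries and their treatments, and the correlations are descriptions only.

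The genes most like each of the 4 were found by the same correlation over 18 libraries. For Hr these were Adora1 (the adenosine A1 receptor, r = 0.988), Tmem41b (0.988), Nudt18 (0.986), Tlcd2 (0.985) and Rassf3 (0.985). Adora1 stood at 7.47 ± 1.2 FPKM on chow, 2.66 ± 0.420 FPKM on PTU and 16.6 ± 0.413 FPKM after T3 in WT hearts, and Tlcd2 at 4.66 ± 0.851, 1.67 ± 0.189 and 24 ± 3.77 FPKM (SD, n = 3). For Klf9 they were Rtn4ip1 (0.979), Slc25a33, a mitochondrial nucleotide carrier (0.979), Hsdl2 (0.978), Gpcpd1 (0.978) and Vwa8 (0.977). For Me1 they were the pacemaker channel Hcn2 (0.959), Gm10336 (0.957), the proteasome activator Psme4 (0.957), Rilpl1 (0.957) and Pdk4, a kinase that restrains pyruvate oxidation (0.955). Thrsp had no neighbour as close over the 18 libraries, with Slc51a at 0.906, Tlcd1 at 0.904, Plekha3 at 0.902, Rabepk at 0.894 and Pitpna at 0.892. Slc51a was low, with means of 1.24, 0.0498 and 3.02 FPKM on chow, PTU and T3 in WT hearts. In the 9 WT libraries alone the closest gene reached 0.989 for Thrsp and for Me1, 0.992 for Klf9 and 0.995 for Hr.

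One of these genes adjoins its partner on the chromosome. Nudt18, a nudix hydrolase gene, lies on the same strand at chr14:70577637-70582688, and 4088 bases separate it from the end of Hr. Of 12586 genes it ranked 3 in likeness to Hr. It stood at 7.51 ± 0.336 FPKM on chow, 3.48 ± 0.189 FPKM on PTU and 16.6 ± 1.04 FPKM after T3 in WT hearts, and at 6.10 ± 0.986, 3.99 ± 1.02 and 19.7 ± 0.963 FPKM in cKO hearts (SD, n = 3). By limma it fell by 0.93 in WT (adjusted p = 0.000116) and by 0.52 in cKO hearts on PTU (adjusted p = 0.00919), and rose with T3 by 1.97 (adjusted p = 8.18e-09) and 2.07 (adjusted p = 4.59e-09). It also ended above chow, by 1.05 and 1.55. The next gene beyond it, Fam160b2, ranked 364, and Reep4, on the other side of Hr, ranked 2199 with r = 0.728. Ndufc2, separated from Thrsp by 5135 bases, ranked 1270 in likeness to Thrsp with r = 0.713, and Pgm3, separated from Me1 by 9528 bases, ranked 7715 in likeness to Me1 with r = -0.27. Whether reads that run past the end of Hr were counted for Nudt18 was not tested.

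Close relatives of the 4 genes did not share their changes as a group. Of the 3 other genes of the Hr family of histone demethylases, 2 fell with T3 against PTU in WT hearts, beside 21.8% of all tested genes. Kdm3b fell by 0.62 (adjusted p = 1.40e-05) and Kdm3a by 0.28 (adjusted p = 0.00512), while Jmjd1c stood at 10.3 ± 0.660 FPKM on PTU and 9.18 ± 1.36 FPKM after T3. The paralogue of Thrsp, Mid1ip1, stood at 115 ± 20.6 and 114 ± 31.1 FPKM in the same groups, and rose in cKO hearts by 0.58 (adjusted p = 0.0364). Of the mitochondrial malic enzymes, Me2 rose by 0.54 in WT (adjusted p = 0.00663) and not in cKO hearts (0.07, adjusted p = 0.710), a difference between genotypes for which the limma interaction was not called. Me3 was not called in any treatment comparison.

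Among the 11 tested Krüppel-like relatives of Klf9, 2 rose and 5 fell with T3 against PTU in WT hearts, where 22.3% of all tested genes rose and 21.8% fell. Klf10 moved as Klf9 did, falling by 1.43 on PTU (adjusted p = 0.00182) and rising by 1.74 with T3 (adjusted p = 7.88e-05). Klf15, known for its part in cardiac fatty acid and amino acid use, went the other way, from 52.0 ± 8.77 FPKM on PTU to 17.6 ± 4.04 FPKM after T3 (SD, n = 3; log2 difference -1.52, adjusted p = 0.000169). Klf16 fell by 0.94 (adjusted p = 8.16e-05) and Klf11 by 0.63 (adjusted p = 0.00428). The median log2 difference of the 11 genes was -0.23.

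Thrsp and Me1 belong to fatty acid synthesis and its NADPH supply, and 19 other genes of that function were tested. On PTU, 1 of them was called higher and 4 lower in WT hearts, and 2 higher and 2 lower in cKO hearts. Of all tested genes, 8.02% were called higher and 8.76% lower in WT, and 6.44% higher and 9.59% lower in cKO hearts. With T3 against PTU, 9 rose and 1 fell in WT, and 9 rose and 2 fell in cKO hearts. Of all tested genes, 22.3% and 24.9% rose, and 21.8% fell in each genotype. Mlxipl, the carbohydrate response factor ChREBP, stood at 9.16 ± 1.53, 3.71 ± 0.332 and 16.1 ± 3.61 FPKM on chow, PTU and T3 in WT hearts, and rose by 1.84 with T3 (adjusted p = 3.26e-07). Idh1, another cytosolic source of NADPH, stood at 37.0 ± 4.40, 19.4 ± 3.25 and 59.2 ± 9.47 FPKM and rose by 1.56 (adjusted p = 5.48e-07), and Acss2, which makes acetyl-CoA from acetate, rose by 0.75 (adjusted p = 2.97e-05). Srebf1, the gene of a lipogenic transcription factor, went the other way, rising by 1.08 on PTU (adjusted p = 0.00284) and falling by 1.56 with T3 (adjusted p = 2.93e-05). The median log2 difference with T3 was 0.44 in WT and 0.34 in cKO hearts. The synthase itself, Fasn, stood at 5.51 ± 1.72 FPKM on PTU and 7.97 ± 5.94 FPKM after T3 and was not called (adjusted p = 0.530), and neither was the desaturase Scd1 (5.90 ± 2.35 and 39.3 ± 54.7 FPKM, adjusted p = 0.147), both named after their values were seen.

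Of 17 other genes known to be induced by thyroid hormone, 14 were tested. On PTU, 8 were called lower and 0 higher in WT hearts, and 8 lower and 1 higher in cKO hearts. Of all tested genes, 8.76% were called lower and 8.02% higher in WT, and 9.59% lower and 6.44% higher in cKO hearts. With T3 against PTU, 9 rose and 1 fell in WT, and 10 rose and 1 fell in cKO hearts. Of all tested genes, 22.3% and 24.9% rose, and 21.8% fell in each genotype. The pacemaker channel Hcn2 rose by 3.29 (adjusted p = 9.86e-09), the uncoupling protein Ucp3 by 3.82 (adjusted p = 2.92e-07), the alpha myosin heavy chain Myh6 by 3.85 (adjusted p = 1.21e-06) and Angptl4, an inhibitor of lipoprotein lipase, by 2.14 (adjusted p = 0.000324) in WT hearts. Against chow, 5 lay above and 1 below in WT hearts, beside 7.68% and 7% of all tested genes, and the median log2 difference was 0.09, against 1 from PTU to T3. Hcn2 and Ucp3 ended above chow, by 0.81 (adjusted p = 0.0142) and 1.16 (adjusted p = 0.0213), whereas Myh6 did not (-0.06, adjusted p = 0.936). The gene of the list that fell with T3, Mbp, the myelin basic protein known as a target in brain, fell by 0.58 (adjusted p = 0.000858) from 2.6 ± 0.506 FPKM on PTU, and was named after its value was seen. The deiodinase gene Dio1, a classic target in liver, likewise named afterwards, was listed at the floor of 0.01 FPKM in all 18 libraries.

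**Figure D5:**
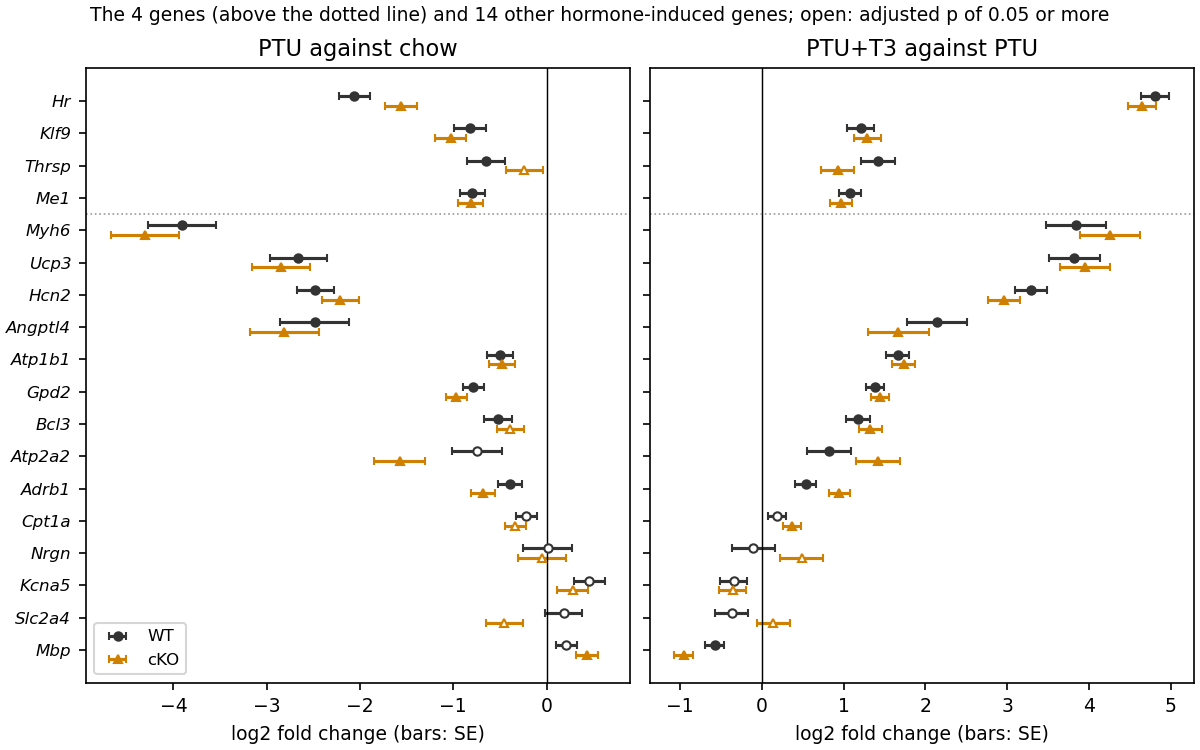
limma log2 fold changes with SE bars (x axes) for Hr, Klf9, Thrsp and Me1 (above the dotted line) and 14 other hormone-induced genes (below it), for PTU against chow and T3 after PTU against PTU, in WT (circles) and cKO hearts (triangles); open symbols have an adjusted p of 0.05 or more. Hr, at 4.81 in WT hearts, lies beyond Myh6 at 3.85 and Ucp3 at 3.82 with T3, while Myh6 lies beyond Hr on PTU, at -3.91 against -2.06.

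The 2 receptor genes through which T3 acts moved in opposite directions. Thra, the main receptor gene of the heart, rose by 0.88 on PTU (adjusted p = 1.12e-05) and fell by 1.43 with T3 (adjusted p = 9.41e-09) in WT hearts. Thrb stood at 5.66 ± 1.31, 3.98 ± 0.119 and 9 ± 0.672 FPKM on chow, PTU and T3 (SD, n = 3). It rose by 1 on the log2 scale with T3 (adjusted p = 4.92e-05) and was not called on PTU (-0.40, adjusted p = 0.0709). Rxra, which encodes a heterodimer partner of these receptors, fell by 0.47 with T3 (adjusted p = 0.000815).

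Klf9 is also known as a glucocorticoid-induced and clock-controlled gene, so genes of both kinds were counted. Of 13 glucocorticoid-induced genes, 2 rose and 5 fell with T3 against PTU in WT hearts, beside 22.3% and 21.8% of all tested genes, with a median log2 difference of -0.38. The metallothionein gene Mt2 fell by 1.91 (adjusted p = 1.96e-05), Nfkbia by 0.96 (adjusted p = 0.000267) and Mt1 by 0.89 (adjusted p = 0.000131), whereas Pdk4 rose by 2.45 (adjusted p = 0.000461). Of 16 circadian clock genes, 2 rose and 4 fell in the same comparison, again beside 22.3% and 21.8% of all tested genes, with a median of 0.13. The clock activator Arntl rose by 0.83 on PTU (adjusted p = 0.0315) and fell by 0.87 with T3 (adjusted p = 0.0101), at levels of 2.28 ± 1.2 FPKM and 0.774 ± 0.566 FPKM (SD, n = 3). Of the other clock genes named by the same rule, Hlf rose by 0.78, and Nfil3 and Npas2 fell by 0.73 and 0.61. No source used here gives the hour at which the hearts were taken.

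Markers of other cell types also moved with treatment. Of 8 macrophage markers, 5 fell on PTU and 7 rose with T3 against PTU in WT hearts, beside 8.76% of all tested genes lower on PTU and 22.3% higher with T3, and their sum ran from 161 to 281 FPKM on chow, 82.6 to 134 FPKM on PTU and 255 to 349 FPKM after T3. In cKO hearts 0 of the 8 fell on PTU and 5 rose with T3 against PTU, beside 9.59% of all tested genes lower and 24.9% higher. The macrophage sums there were 194 to 240, 93.0 to 252 and 247 to 295 FPKM. Smooth muscle and pericyte markers summed to 379 to 458, 242 to 271 and 551 to 799 FPKM in WT hearts. In cKO hearts the sums were 377 to 457, 260 to 333 and 459 to 586 FPKM. Of the 7, 1 fell on PTU in WT and 2 in cKO hearts, beside 8.76% and 9.59% of all tested genes. With T3 against PTU, 1 of 7, Acta2, rose in both genotypes, beside 22.3% and 24.9% of all tested genes. In WT hearts 1 of 7 fell in that comparison, beside 21.8% of all tested genes, and 0 in cKO hearts. Of 6 tested erythrocyte markers, 4 fell on PTU and 2 rose with T3 against PTU in cKO hearts, where 9.59% of all tested genes fell and 24.9% rose, and 0 were called in either comparison in WT hearts. Erythrocyte sums in cKO hearts were 2027 to 3469.8 FPKM on chow, 638 to 1491 FPKM on PTU and 1248 to 2093 FPKM after T3, and in WT hearts 2064 to 2667, 1023 to 2330.0 and 1358 to 2214 FPKM. In cKO hearts the chow and PTU sums did not overlap. Endothelial sums ran from 330 to 429 FPKM over all groups, and atrial sums varied widely, from 544 to 10260 FPKM. The part of these cells in the changes of Hr, Klf9, Thrsp and Me1 was not tested. Without the library highest in atrial markers of each group, Hr, Klf9 and Me1 kept their treatment calls, and the fall of Thrsp on PTU in WT hearts was 0.35 in size and not called (adjusted p = 0.384). In WT chow and WT PTU these libraries are the ones also highest in fat-restricted markers, so both settings give the same estimate of this fall.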

How the data were processed

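RNA was extracted from hearts with Trizol and made into poly(A)-selected libraries with a TruSeq kit that does not mark strand, per the labels' protocols. Bowtie2 and Cufflinks were used on the mm10 build, per the submitters' processing notes, and their versions, annotation and strand setting are not stated there. The authors deposited 1 table of FPKM values per gene and library, and tables of their own comparisons with p-values and q-values per gene. Of 24341 genes, 5532 were at the floor of 0.01 FPKM in all libraries, and 5 failed values in 2 genes were left out with those genes.

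Groups came from the labels. Values were taken as log2(FPKM + 1) over the 12587 genes that reached 1 FPKM in 3 or more libraries, and tested with limma 3.58.1 (R 4.3.3; 6 group means, trended and robust prior) with Benjamini-Hochberg adjustment in each comparison at 0.05. FPKM values are not counts, so no count model was used. Absolute depth is unknown, and relative depth came from the steps between low values, with 26.9% to 34.7% of low genes at the commonest step. Python 3.11.15 with pandas 2.3.3, numpy 2.4.6, scipy 1.17.1 and matplotlib 3.10.9 gave the other values. The limma script was tested on simulated data. Positions came from GENCODE M21 on GRCm38, the same assembly as mm10.

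The 4 genes and the gene lists were chosen with earlier results of these data known. Of each list the text names up to 4 genes called in T3 against PTU in WT hearts with the largest change, together with the relatives of the 4 genes, the receptors and, for likeness, the 5 genes with the highest correlation. 1 gene that this rule names is not reported here. Alternatives were other pseudocounts, filters, normalizations and priors, fits on the compared groups only, and left-out libraries. Leaving out the library highest in fat-restricted markers, and averaging over genotypes, were added after seeing the data.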

Additional observations from a re-analysis of the deposited data

How the results depend on the processing

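Over 31 alternatives for each of 6 treatment comparisons, no call of Hr or Me1 changed out of 186 each, while 2 of Klf9 and 21 of Thrsp did. These alternatives are not independent. Leaving out a library of a group outside the comparison alters only the estimated spread, and averaging over genotypes enters the same fit under both genotypes. No called value changed direction. The uncalled difference of Me1 after T3 against chow in cKO hearts, 0.16, was -0.01 without the highest atrial library of each group. For Thrsp on PTU in WT hearts (-0.65), the call ended with no filter on low values (-0.65, adjusted p = 0.0626), with the compared groups alone (-0.65, adjusted p = 0.103), and without the highest atrial or fat-restricted library of each group (-0.35 for both). The atrial and fat-restricted settings leave out the same libraries of WT chow and WT PTU, so they give the same estimate here. Without the highest adipocyte library of each group, by a sum made up mainly of Fabp4, the difference was -0.95 and still called (adjusted p = 0.0323). With 1 library left out it ran from -0.80 to -0.40. Averaging over genotypes, chosen after seeing the data, gave -0.44 for Thrsp on PTU, which is called, where the cKO hearts alone gave no call, and 0.33 for Klf9 after T3 against chow, where neither genotype alone did. For Thrsp after T3 against chow, the WT call (0.77) ended without the highest adipocyte (0.59), atrial (0.80) or fat-restricted library (0.72), and ran from 0.62 to 0.91 with 1 library left out. The cKO call (0.69) ended with quantile normalization (0.59) and without the highest adipocyte (0.46) or atrial library (0.81), and ran from 0.52 to 0.81 with 1 left out. The cause of these changes was not tested.

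Between genes, the 9 differences of Hr kept their side of an unadjusted p of 0.05 in every alternative. Over the alternatives run for all 18 differences, 11 values lost that side, all for Klf9 minus Thrsp on PTU, and 8 gained it, for 4 other differences among Klf9, Thrsp and Me1. Klf9 minus Thrsp on PTU was -0.48 on log2(FPKM + 1) (exact permutation p = 0.05). With 1 library left out it ran from -0.62 to -0.41, and Klf9 minus Thrsp after T3 against chow from -0.51 to -0.30. Klf9 minus Me1 with T3 against PTU ran from 0.13 to 0.33. Thrsp minus Me1 ran from 0.28 to 0.51 on PTU and from 0.38 to 0.65 after T3 against chow. No paired analysis was possible because the labels give no replicate numbers shared between groups. With 3 libraries a group and an unknown absolute depth, small differences between genotypes were not detectable.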
